A study of Mus musculus with 4 samples.

Results

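The 7 mRNAs described here, mt-Nd1, mt-Nd2, mt-Nd3, mt-Nd4l, mt-Nd4, mt-Nd5 and mt-Nd6, encode the complex I subunits that mouse mitochondria make from their own genome. They were taken by name from the 15746 genes with values, and all 7 were found among the 37 listed genes of the mitochondrial chromosome. They were selected by gene name. RNA was sequenced from hearts of adult wild-type (WT) mice, with 2 libraries from isolated mitochondria and 2 from the remaining tissue, which the study calls the rest fraction. The rest fraction was the low-speed pellet of the homogenate. The mitochondria were pelleted from its supernatant and, before RNA isolation, treated with digitonin, a detergent that opens cholesterol-containing membranes, and with RNase A, which degrades RNA outside intact membranes. Detergent, RNase and a changed fragmentation time in library preparation are given in the methods for the mitochondrial samples alone, so that these steps and the fraction itself cannot be told apart. Neither the labels nor the methods say whether libraries with the same replicate number came from the same heart. The p-values rest only on the spread between these libraries, drawn in large part from other genes.

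Complex I, the NADH:ubiquinone oxidoreductase, takes electrons from NADH, passes them to ubiquinone and pumps protons across the inner mitochondrial membrane. Its hydrophilic arm and the accessory subunits come from nuclear genes, while the core of its membrane arm is encoded by the mitochondrial genome. ND2, ND4 and ND5 are the antiporter-like subunits of the membrane arm, ND1 forms much of the site where ubiquinone enters, and ND3, ND4L and ND6 are smaller membrane subunits that lie between them. The heart depends on oxidative phosphorylation and is rich in mitochondria. Mitochondrial DNA is transcribed as long polycistronic precursors, which are cut mainly at the tRNAs, and mt-Nd6 is the mRNA on the opposite strand from all the others.

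The start codons show how these genes depart from nuclear ones, and are given for that reason. Each line below is the first 30 bases of the mRNA, 5′ to 3′, with the start codon in capitals, from GENCODE M21 for GRCm38 (mm10).
mt-Nd1: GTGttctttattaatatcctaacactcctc
mt-Nd2: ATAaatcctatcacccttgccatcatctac
mt-Nd3: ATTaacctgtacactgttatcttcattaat
mt-Nd4l: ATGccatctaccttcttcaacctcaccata
mt-Nd4: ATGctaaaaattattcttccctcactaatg
mt-Nd5: ATCaatattttcacaacctcaatcttatta
mt-Nd6: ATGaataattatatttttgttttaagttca
Only mt-Nd4l, mt-Nd4 and mt-Nd6 of the 7 open with ATG, and mt-Nd4 ends in a lone T, which polyadenylation of the mRNA turns into a stop codon. Each gene is a single exon with no intron. On the plus strand lie mt-Nd1 (ENSMUSG00000064341, chrM:2751-3707), mt-Nd2 (ENSMUSG00000064345, chrM:3914-4951), mt-Nd3 (ENSMUSG00000064360, chrM:9459-9806), mt-Nd4l (ENSMUSG00000065947, chrM:9877-10173), mt-Nd4 (ENSMUSG00000064363, chrM:10167-11544) and mt-Nd5 (ENSMUSG00000064367, chrM:11742-13565). On the minus strand lies mt-Nd6 (ENSMUSG00000064368, chrM:13552-14070). Their lengths ran from 297 bases in mt-Nd4l to 1824 bases in mt-Nd5. The strand shows in the base composition, since G made up 28.1% of mt-Nd6 and 8.0% to 11.6% of the other 6 mRNAs.

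Neighbouring members overlap in 2 places, which matters for a count of reads per gene. The last bases of mt-Nd4l are the first bases of mt-Nd4, and the last bases of mt-Nd5 lie opposite the last bases of mt-Nd6. Both windows are on the plus strand, with the overlap in capitals.
mt-Nd4l and mt-Nd4, chrM:10147-10193: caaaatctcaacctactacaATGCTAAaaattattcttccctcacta
mt-Nd5 and mt-Nd6, chrM:13532-13585: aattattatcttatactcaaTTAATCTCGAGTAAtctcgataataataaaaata
In the first window 7 bases are shared, and they hold the start codon ATG of mt-Nd4 and, read in another frame, the stop codon TAA of mt-Nd4l, which share an mRNA in mammals. In the second window 14 bases are shared. The methods state that a read touching several genes was left out, so that reads across these overlaps may be missing from both genes. How much this took from mt-Nd4l, the shortest member, was not tested. The library kit keeps strand, but the use of strand in counting is not given in the sources used here, and without it reads of mt-Nd6 and of RNA antisense to it cannot be told apart.

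The values are normalized counts, which are read counts divided by the authors by a size factor for each library and rounded. Their totals were 183395941 and 81928351 in mitochondrial replicates 1 and 2, and 6956699 and 8584617 in rest replicates 1 and 2. In the mitochondrial libraries each read counted for 3.87 (replicate 1) or 2.55 (replicate 2) units of this scale, and in the rest libraries for less than 1. The mitochondrial rRNAs took 94.5% and 82.5% of the mitochondrial libraries and 52.6% and 58.4% of the rest libraries. Cardiomyocyte markers were present in all libraries, with sums of 284979, 210955, 239775 and 210518 over 7 genes in mitochondrial replicates 1 and 2 and rest replicates 1 and 2, and the nuclear RNAs Malat1 and Neat1 summed to 13629, 8620, 42245 and 44838. No marker of the 5 other cell types searched, 12 genes in all, was at 0 in any library.

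The abundance of the complex I mRNAs was read first in each library. For mt-Nd5, with the highest count of the 7 in all libraries but rest replicate 2, mitochondria had 1022034 and 1379034 normalized counts in replicates 1 and 2, and the rest had 111739 and 91290. For mt-Nd1 they were 475823 and 966648 in mitochondria and 70899 and 95067 in the rest. For mt-Nd4 they were 500413 and 779635 in mitochondria and 67544 and 65139 in the rest. In each of these 3 mRNAs both mitochondrial libraries were above both rest libraries, and mitochondrial replicate 2 was above replicate 1.

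The same held for the other antiporter-like subunit and the 3 small subunits. Counts of mt-Nd2 were 252426 and 430803 in mitochondria and 43049 and 48648 in the rest. Counts of mt-Nd6 were 228320 and 245648 in mitochondria and 22024 and 22396 in the rest, the closest replicate pairs among the members. The shortest mRNAs had the lowest counts, with mt-Nd4l at 57061 and 89468 in mitochondria and 7538 and 5179 in the rest. For mt-Nd3 the counts were 38354 and 67255 in mitochondria and 4092 and 5239 in the rest. Even mt-Nd3, the lowest member, rested on approximately 9903 and 26368 reads in mitochondrial replicates 1 and 2, so that counting error was small beside the difference between replicates. The lower mitochondrial library exceeded the higher rest library by 5.01-fold in mt-Nd1 to 10.2-fold in mt-Nd6.

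**Figure D1:**
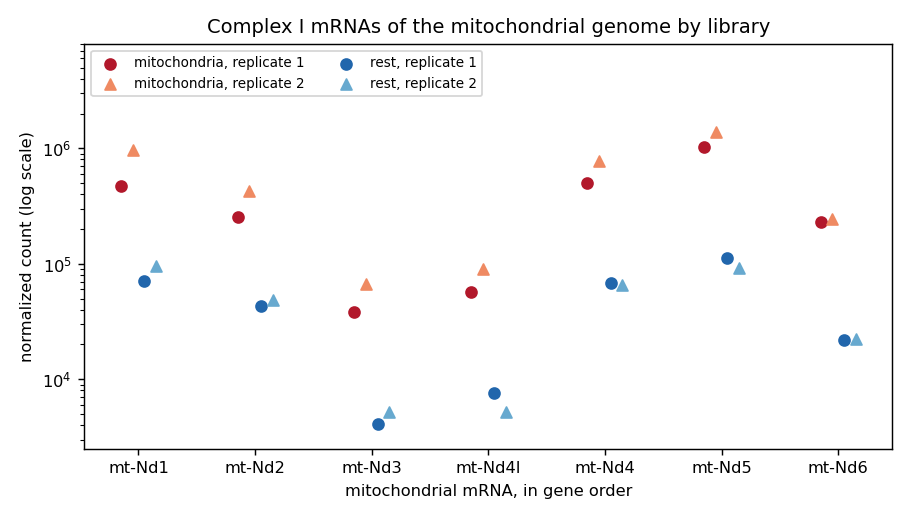
Normalized counts (log scale) of the 7 mitochondrially encoded complex I mRNAs, ordered along the genome, with 1 point per library and the fraction and replicate given by colour and shape. Both mitochondrial points lie above both rest points for all 7 mRNAs as deposited, while the mean difference turns negative, with no member past the test, when libraries are scaled to their total or to the mitochondrial chromosome. The mRNAs mt-Nd3 and mt-Nd4l lie lowest.

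Near-identical copies of mitochondrial DNA in the nuclear genome bear on what these counts hold. A search of the annotated transcripts was run at 95% identity or more over at least 50 bases. From it 5 listed nuclear pseudogenes that match members were kept. The copies described and added below are these 5, which need not be every match under that rule. A run of copies on chromosome 1 holds Gm28439, Gm10222 and Gm28438 side by side, and they match mt-Nd4, mt-Nd4l and mt-Nd3 in the same order, on the minus strand, between bases 24611535 and 24613119. Gm10222 was identical to mt-Nd4l over 294 bases, and Gm28439 to the first 876 of the 1378 bases of mt-Nd4. Gm28438 differed from mt-Nd3 at 1 of 345 bases, T3C counted from the first base of mt-Nd3, so that the copy reads ATC where mt-Nd3 starts with ATT. The first 18 bases of both are given with that base in capitals.
mt-Nd3: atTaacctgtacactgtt
Gm28438: atCaacctgtacactgtt
Of all stretches of 75 bases, the read length, 97.8% of those in mt-Nd3, 98.7% in mt-Nd4l and 61.5% in mt-Nd4 also occurred in another annotated transcript. In mt-Nd2 and mt-Nd5 the share was 5.71% and 1.66%, and in mt-Nd1 and mt-Nd6 it was 0%.

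The copies were listed at levels that followed this likeness. Gm10222 stood at 1.02, 1.01, 1.01 and 1.00 times the count of mt-Nd4l in mitochondrial replicates 1 and 2 and rest replicates 1 and 2. In the same order Gm28438 stood at 1.07, 1.05, 1.06 and 1.02 times mt-Nd3, and Gm28439 at 0.313, 0.290, 0.342 and 0.366 times mt-Nd4. The less similar copies were low, with Gm13339 on chromosome 2, 96.7% identical to the end of mt-Nd2, between 0.0594 and 0.0898 times mt-Nd2. On chromosome 13, Gm4076, 95.2% identical to a part of mt-Nd5, stood between 0.0021 and 0.0034 times mt-Nd5. The methods state that reads aligning to several regions were left out, and how reads of identical stretches came to be counted for both genes was not tested. The counts of mt-Nd3, mt-Nd4l and mt-Nd4 are therefore uncertain as levels, and results are given also with the copies added to their members. Where a read was counted at both genes, such a sum includes it more than once. The sums are thus an alternative way of counting and not corrected levels.

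Levels were compared between genes per length, in normalized counts per kb. In mt-Nd1 they were 497203 and 1010082 in mitochondria and 74085 and 99339 in the rest. In mt-Nd5 they were 560326 and 756049 in mitochondria and 61260 and 50049 in the rest. These 2 mRNAs took the first and second place among the members in every library, in an order that changed, since mt-Nd1 was above mt-Nd5 in 3 of 4 libraries. After them came mt-Nd4, mt-Nd6 and mt-Nd2, where mt-Nd4 was above mt-Nd6 in 3 of 4 libraries and mt-Nd6 above mt-Nd2 in 3 of 4. Neighbours in this middle of the order thus did not differ in a constant direction. The lowest were mt-Nd4l, at 192125 and 301239 in mitochondria and 25380 and 17438 in the rest, and mt-Nd3, at 110213 and 193262 in mitochondria and 11759 and 15055 in the rest, ranked 6 and 7 of 7 in every library.

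With the copies added, mt-Nd3 kept rank 7 in all 4 libraries, and mt-Nd4l moved to ranks 4 to 6 and mt-Nd4 to ranks 2 to 3. The place of mt-Nd5 then ran from 1 to 4, with mt-Nd4 above it in both rest libraries. The mRNAs mt-Nd4l and mt-Nd4 lie on 1 transcript, and their ratio per kb is given for that reason. It was 0.529 and 0.532 in mitochondria and 0.518 and 0.369 in the rest as deposited. With the copies added it was 0.816 and 0.831 in mitochondria and 0.775 and 0.541 in the rest. Rest replicate 2 stood apart from the other 3 libraries in this ratio under both ways of counting. Leaving out reads across the overlap of mt-Nd4l and mt-Nd4, as the methods state, would weigh more on the shorter mt-Nd4l. The part of this rule in the ratio was not tested.

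**Figure D2:**
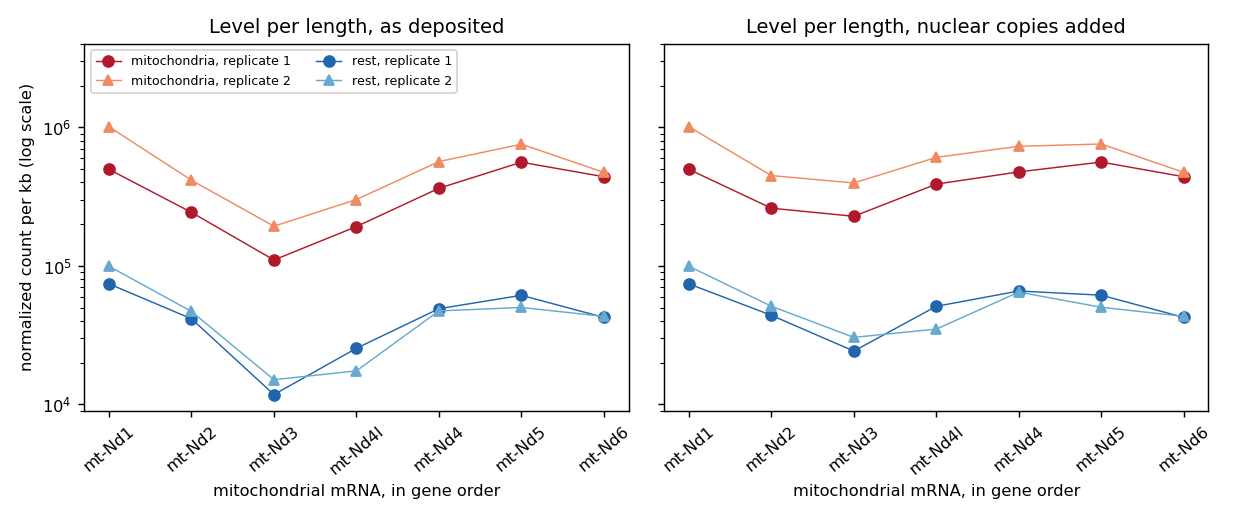
Normalized count per kb (log scale) of the 7 mRNAs in genome order, as deposited (left) and with the counts of near-identical nuclear copies added (right), with 1 line per library. In both panels mt-Nd3 is the lowest member in all 4 libraries, and the addition raises mt-Nd3, mt-Nd4l and mt-Nd4 relative to the others. The sums are not corrected levels, since a read may have been counted at both genes.

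The mitochondrial and rest fractions were then compared, which addresses how far the isolation enriched these transcripts. As deposited, all 7 complex I mRNAs had positive log2 fold changes, from 2.85 in mt-Nd2 to 3.56 in mt-Nd5, and all 7 turned negative when libraries were scaled to their total (−1.14 to −0.43) or to the total of the mitochondrial chromosome (−1.69 to −0.98), where 0 of 7 were called (limma adjusted p 0.0534 to 0.667). At an adjusted p-value under 0.05 (limma's moderated test over 12150 genes, Benjamini-Hochberg adjustment), 3 of the 7 were higher in mitochondria as deposited, mt-Nd3, mt-Nd4l and mt-Nd6. Over all genes tested 2.16% were called higher and 1.39% lower. Of these 3, mt-Nd3 and mt-Nd4l are the members whose counts are shared nearly in full with nuclear copies. Of the 6 other mitochondrial mRNAs, 3 were called higher in the same test as deposited, and all 6 had both mitochondrial libraries above both rest libraries.

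The log2 fold change was 3.46 (SE 0.367) for mt-Nd3, 3.52 (SE 0.370) for mt-Nd4l and 3.41 (SE 0.369) for mt-Nd6, each with an adjusted p of 0.0427 from limma. The larger mRNAs changed by a like amount with a larger error, which the test takes in large part from genes of like abundance. Replicates 1 and 2 of mt-Nd5 differed by −0.43 in mitochondria and 0.29 in the rest on the log2 scale. Those of mt-Nd3 differed by −0.81 and −0.36. Which members passed is thus not an order of their own replicate spread. For mt-Nd5 the log2 fold change was 3.56 (SE 0.704, limma adjusted p = 0.0608) and for mt-Nd4 3.24 (SE 0.585, limma adjusted p = 0.0563). For mt-Nd1 it was 3.05 (SE 0.684, limma adjusted p = 0.0699) and for mt-Nd2 2.85 (SE 0.516, limma adjusted p = 0.0563). All 7 were higher at an unadjusted p under 0.05 (limma), as were 14.1% of all genes, with 16.2% lower. All 7 had both mitochondrial libraries above both rest libraries. Such an order was found in 27.7% of all genes tested, and the opposite order in 33.4%. An exact permutation test of 1 gene, two-sided, has 0.333 as its smallest p in this design, so that the tests rest on the spread shared across genes. Leaving out any 1 of the 4 libraries left 0 of the 7 called, with limma adjusted p between 0.0523 and 0.663, at log2 fold changes between 2.46 and 3.86.

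Against all genes the members stood high. Their median log2 fold change was 3.41, that of the 6 other mitochondrial mRNAs 3.19, and that of all 12150 genes tested −0.14. Of 10611 nuclear protein-coding genes tested, 0 had a higher log2 fold change than mt-Nd5 and 12 had a higher one than mt-Nd2. A scaling shifts the log2 fold changes of all genes nearly alike, so that the position relative to their median could hardly change. The members lay 2.99 to 3.70 above that median on the log2 scale as deposited, 2.79 to 3.50 above it with libraries scaled to their total, and 2.75 to 3.45 above it with scaling to the mitochondrial chromosome. The median of all genes itself moved to −3.93 and −4.43 under these 2 scalings, to −1.89 with scaling to the total without mitochondrial rRNA, and to −0.98 with scaling to the total without the mitochondrial chromosome. Over all genes, the calls were 262 higher and 169 lower as deposited, 129 and 3819 without the mitochondrial chromosome, 32 and 9143 without mitochondrial rRNA, 2 and 12022 with the library total and 2 and 12076 with the mitochondrial chromosome.

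**Figure D3:**
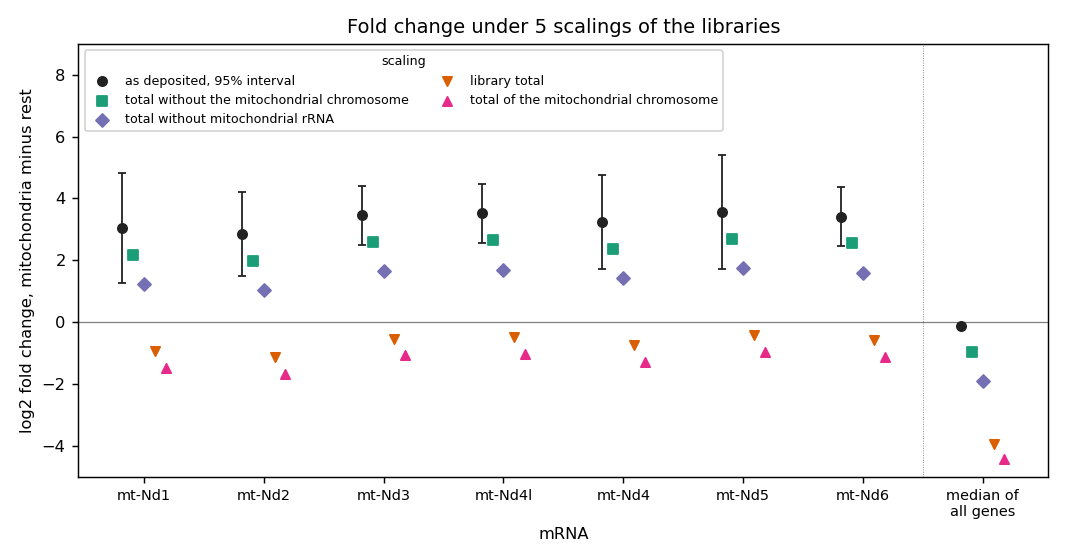
Log2 fold change, mitochondria minus rest, of the 7 mRNAs and, at the right, the median over all 12150 genes, under 5 scalings of the libraries, with the 95% interval of limma drawn for the values as deposited. The members are positive as deposited and in both scalings that leave out rRNA or the whole mitochondrial chromosome. They are negative with the library total and the total of the mitochondrial chromosome. They stay above the median of all genes, which a scaling, shifting all genes nearly alike, could hardly change.

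The totals used for scaling differ in whether they hold the mitochondrial rRNAs. The 7 mRNAs together made up 1.40% and 4.83% of all normalized counts in mitochondria and 4.70% and 3.88% in the rest, ranges that overlap. Without the 2 mitochondrial rRNAs, they made up 25.3% and 27.6% in mitochondria and 9.91% and 9.32% in the rest, a difference of 16.9 percentage points that was larger than the spread between replicates (26.5% ± 1.62 and 9.62% ± 0.419, SD, n = 2 each). Per kb, the large rRNA mt-Rnr2 stood at 168 and 31.2 times mt-Nd1 in mitochondria and at 21.9 and 20.6 times in the rest. Mitochondrial replicate 1 was therefore the library that stood apart in rRNA, and the part of rRNA content in the fold changes as deposited was not tested. In these bulk fractions, more mitochondria and more RNA per mitochondrion cannot be told apart.

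A second test asked whether complex I mRNAs differed between fractions beyond the other mitochondrial mRNAs. The reference was the mean log2 value of mt-Co1, mt-Co2, mt-Co3, mt-Cytb, mt-Atp6 and mt-Atp8 in the same library, which encode subunits of complexes IV, III and V, and it does not depend on the scaling of the libraries. No member passed the test (0 of 7, limma, with 0 also at an unadjusted p under 0.05), against 0.0412% of all genes called higher and 97.6% called lower. The smallest limma adjusted p was 0.429, for mt-Nd5. The reference is subtracted from every gene, so that its own replicate differences enter the error that all genes share. A small difference in a member could thus go uncalled, and 0 of 7 does not show equal levels. The 7 mRNAs made up 46.2% and 44.0% of the normalized counts of the 13 mitochondrial mRNAs in mitochondria and 44.4% and 42.8% in the rest, ranges that overlap.

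The intervals of this test were wide for single members, with an error drawn mostly from all genes. For mt-Nd5 the log2 difference, mitochondria minus rest, was 0.34 (95% interval −0.53 to 1.22), with relative levels of 1.76 and 1.40 in mitochondria and 1.49 and 0.98 in the rest on the log2 scale. For mt-Nd1 it was −0.16 (−1.08 to 0.75), for mt-Nd4 0.02 (−0.91 to 0.96) and for mt-Nd4l 0.30 (−0.95 to 1.56). For mt-Nd6 it was 0.20 (−0.89 to 1.30). In these 5 mRNAs the libraries of the fractions overlapped.

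In mt-Nd2 and mt-Nd3 they did not overlap. The log2 level of mt-Nd2 relative to the other mitochondrial mRNAs was −0.26 and −0.28 in mitochondria and 0.11 and 0.07 in the rest, a difference of −0.36 (95% interval −1.36 to 0.64, limma adjusted p = 0.466). The difference was larger than the spread between the replicates of mt-Nd2 itself, and did not pass the test, which draws its error from all genes. For mt-Nd3 the relative levels were −2.98 and −2.96 in mitochondria and −3.28 and −3.15 in the rest, a difference of 0.24 (−1.03 to 1.52, limma adjusted p = 0.697). In the background of all genes, 98.9% had both mitochondrial libraries below both rest libraries on this scale and 0.0905% had both above. Such a separation was not particular to complex I mRNAs. Among the reference mRNAs themselves, the fractions also did not overlap in mt-Atp6 (difference 0.25) and mt-Co2 (0.07), and overlapped in the remaining ones. As a share of the 13 mRNAs, mt-Nd2 made up 4.53% and 4.79% in mitochondria and 5.85% and 6.25% in the rest.

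**Figure D4:**
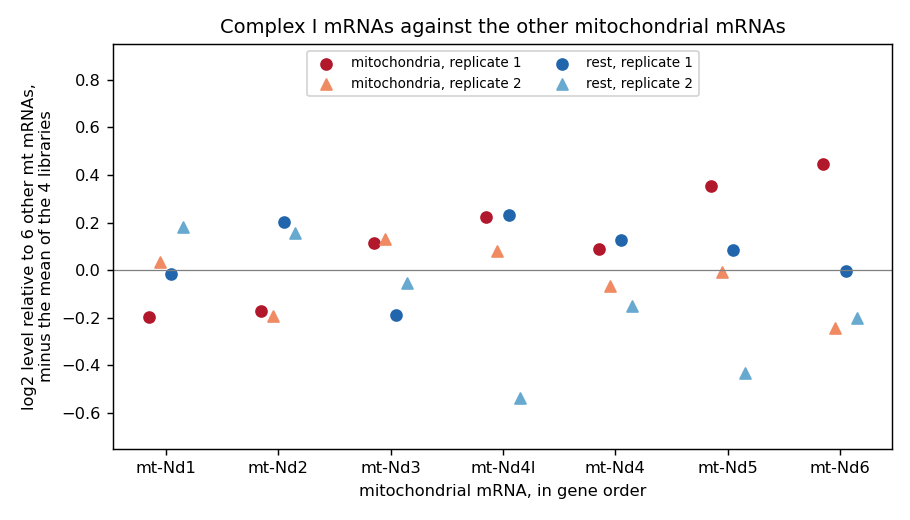
Log2 level of each complex I mRNA relative to the mean of the 6 other mitochondrial mRNAs in the same library, after subtraction of its mean over the 4 libraries. The fractions separate in mt-Nd2 (mitochondria below rest) and mt-Nd3 (mitochondria above rest) and overlap in the other 5, where mitochondrial replicate 1 is the highest library for mt-Nd5 and mt-Nd6.

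The mRNA on the opposite strand, mt-Nd6, was set against the 6 complex I mRNAs of the other strand. Its level per kb was 134% and 87.6% of their mean in mitochondria and 96.8% and 93.8% in the rest. Its log2 count, not divided by length, minus the mean log2 count of these 6 was 0.01 and −0.60 in mitochondria and −0.44 and −0.43 in the rest. The 2 rest libraries were thus nearly equal, and lay between the 2 mitochondrial libraries. The difference between fractions was 0.14 (SE 0.515, 95% interval −0.97 to 1.25, limma adjusted p = 0.793), and 0.14 with the copies added (limma adjusted p = 0.784).

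Replicates differed more among mitochondrial than among rest libraries in all 7 members. Mitochondrial replicate 1 was below replicate 2 in all 7, by −1.02 in mt-Nd1 to −0.11 in mt-Nd6 on the log2 scale. The rRNAs moved the other way, with replicate 1 above replicate 2 by 1.23 in mt-Rnr1 and 1.40 in mt-Rnr2. Between the rest libraries the differences ran from −0.42 in mt-Nd1 to 0.54 in mt-Nd4l, and were negative in 4 and positive in 3 of the 7. Here mt-Nd6 was the steadiest member, with differences of −0.11 and −0.02.

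The nuclear-encoded subunits of complex I are translated in the cytosol and imported, and 37 of them were in the list searched. As deposited, 17 of these 37 mRNAs were higher in mitochondria and 0 lower (limma, adjusted p under 0.05, against 2.16% and 1.39% of all genes), 37 of 37 had positive log2 fold changes, and their median was 1.54. At an unadjusted p under 0.05, 34 were higher and 0 lower, against 14.1% and 16.2% of all genes. The direction turned with the library total, where 0 of the 53 tested mRNAs of subunits and assembly factors were higher and 52 lower (98.9% of all genes lower), and with the total of the mitochondrial chromosome, where 0 were higher and 53 lower (99.4% of all genes lower). With the total without mitochondrial rRNA, 0 were higher and 5 lower, against 75.3% of all genes lower. Leaving out any 1 library left 0 called.

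Among the subunits, the highest log2 fold change was that of Ndufb1-ps. This gene, which has the annotation name of a pseudogene and was in the list as the mouse counterpart of a subunit gene, had 430 and 365 normalized counts in mitochondria and 64 and 65 in the rest, a log2 fold change of 2.60 (SE 0.191). Ndufc1 followed with 2.49 (SE 0.321), Ndufa5 with 2.29, Ndufb4 with 2.25 and Ndufa6 with 2.23, each with a limma adjusted p of 0.0427. At the other end lay Ndufs1 and Ndufv1. Ndufs1 had 1313 and 1064 normalized counts in mitochondria and 1122 and 1022 in the rest, a log2 fold change of 0.14 (limma adjusted p = 0.634). Ndufv1, which binds NADH, had a log2 fold change of 0.64 (limma adjusted p = 0.173).

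Assembly factors, which build the complex and are not part of it, were listed for 16 of 17 genes, and 1 of the 16 was higher in mitochondria and 0 were lower, with a median log2 fold change of 0.84 and 8 higher and 0 lower at an unadjusted p under 0.05 (limma). Over all genes the shares were 2.16% higher and 1.39% lower past the adjusted threshold, and 14.1% and 16.2% unadjusted. The called gene was Ndufaf8, at 101 and 84 normalized counts in mitochondria and 17 and 13 in the rest (log2 fold change 2.55, limma adjusted p = 0.0427). Ndufaf5, at 1.67, did not pass (limma adjusted p = 0.0626). The lowest were Acad9 at 0.14 and Nubpl at −0.08, the latter at 5 to 15 normalized counts. The mRNAs of the 37 nuclear subunits summed to 26063 and 20010 normalized counts in mitochondria and 9139 and 8453 in the rest. The 7 mitochondrial mRNAs summed to 98.8 and 198 times as much in mitochondria and 35.8 and 39.4 times in the rest, a ratio that does not depend on the scaling of the libraries.

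**Figure D5:**
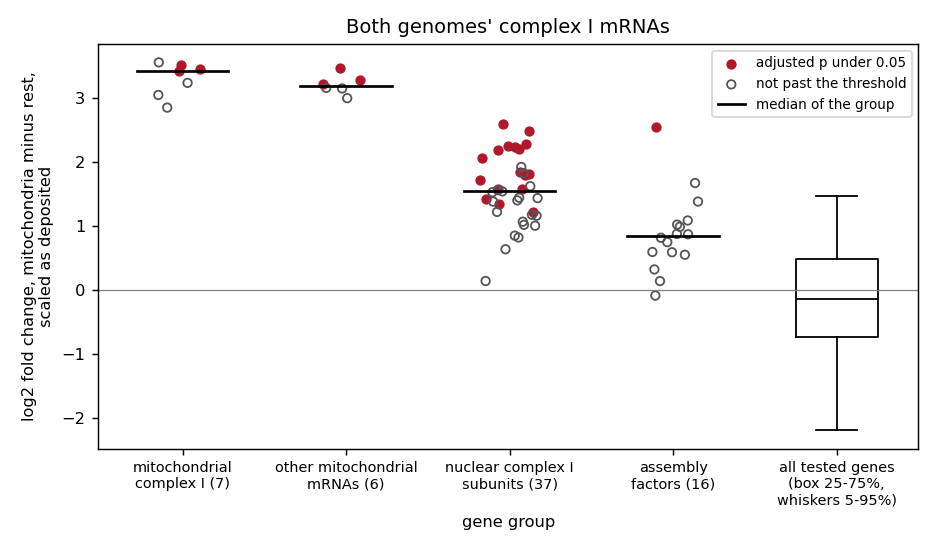
Log2 fold change, mitochondria minus rest, scaled as deposited, for the complex I mRNAs of the mitochondrial genome, the 6 other mitochondrial mRNAs, the nuclear subunits and the assembly factors, with 1 point per gene, filled where limma's adjusted p was under 0.05, and a line at the median. The box shows all 12150 genes, and the medians are 3.41, 3.19, 1.54 and 0.84 against −0.14 for all genes; all 4 medians turn negative with the library total or the mitochondrial chromosome as the scale.

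The genes with the pattern most like the members were sought among the 12143 other genes tested, by the distance between log2 values over the 4 libraries, each centred on its mean, and the median profile of the 7 members. The nearest were Gm28661, a nuclear copy of mt-Co2 on chromosome 1, at a distance of 0.0904, and mt-Co2 and mt-Co1, subunits of complex IV, at 0.131 and 0.143. Within the members themselves the distance ran from 0.0735 in mt-Nd4 to 0.472 in mt-Nd2. The nearest nuclear protein-coding genes were farther away and low. They were Lrp2, an endocytic receptor (0.745, 5 to 54 normalized counts), Col7a1, a collagen (0.795, 3 to 43), and Cnmd, a cartilage protein (0.927, 6 to 59), and few reads lie behind these values. They took ranks 21, 23 and 24 among the genes compared.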

How the data were processed

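RNA-seq values of 2 mitochondrial and 2 rest libraries were used. The authors used Trimmomatic 0.39 for trimming, STAR 2.7.10a for alignment to GRCm38 (mm10) and featureCounts 2.0.2 for counting per gene, versions from the submitters' processing notes, which differ from those in the study's methods for STAR, the counter and DESeq2. The deposited signal is the count divided by a DESeq2 size factor and rounded by the authors. The median ratio to the geometric mean was 1.01 in each library. In the mitochondrial libraries 99.7% and 99.2% of values up to 2000 lay at whole reads, approximately 47354000 and 32120800 reads in all, while the rest libraries, with less than 1 normalized count per read, did not allow reads to be restored, so that no count test was run.

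A minimum of 10 normalized counts in 2 or more libraries left 12150 genes. After addition of 1 and log2 transformation they were tested in limma 3.58.1 (R 4.3.3), with a moderated test, a mean-variance trend and Benjamini-Hochberg adjustment over all of them. The alternatives were other scalings, filters and pseudocounts, the replicate block, added copies, other references and each library left out. A fold change on this scale understates that of low genes. The fits were tested on simulated data. Copies were searched with blastn 2.17.0 in GENCODE M21 transcripts, where all 37 mitochondrial genes had the listed positions. The 7 members and all lists were chosen with earlier results of these data known. Named nuclear complex I genes are the 2 highest and the 2 lowest log2 fold changes in each list and up to 5 called genes in each direction, by fold. The cell type marker lists were read as sums: in mitochondrial replicates 1 and 2 and rest replicates 1 and 2, endothelial markers summed to 1286, 1107, 2153 and 2007, fibroblast markers to 4226, 1813, 1144 and 1611, smooth muscle markers to 136, 423, 588 and 1374, blood markers to 27, 170, 432 and 221, and immune markers to 93, 69, 45 and 57. Of these 12 genes 0 were called higher and 1, a smooth muscle marker, lower. Their part in the results was not tested.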

Additional observations from a re-analysis of the deposited data

How the results depend on the processing

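The number of members called higher was 3 as reported, 5 with TMM scaling, 6 with scaling to the total without the mitochondrial chromosome, 5 without mitochondrial rRNA (an alternative chosen after seeing the data), 7 on genes with a mean above 50, 7 with a pseudocount of 10, and 0 with the library total, the mitochondrial chromosome total, a pseudocount of 0.1 and each library left out (0 to 0), where a lone library is assumed to vary like the others. Recomputed size factors, no filter and added copies gave 3. With the library total as the scale, log2 fold changes were −0.94 in mt-Nd1, −1.14 in mt-Nd2, −0.53 in mt-Nd3, −0.47 in mt-Nd4l, −0.75 in mt-Nd4, −0.43 in mt-Nd5 and −0.57 in mt-Nd6. Scaled to the mitochondrial chromosome it was, in the same order, −1.49, −1.69, −1.08, −1.02, −1.30, −0.98 and −1.12. Both totals include the mitochondrial rRNA, and with the total without it the 7 values were between 1.04 and 1.74. Relative to the other mitochondrial mRNAs, 0 members were called under the other references, filters and pseudocounts, the replicate block and added copies. The error of this test comes mostly from all genes, so that 0 does not show equal levels. The sign of mt-Nd4 turned with all 13 mRNAs as the reference (−0.021) and with copies added on both sides (−0.033), and ranged from −0.11 to 0.16 with a library left out, that of mt-Nd4l from −0.078 to 0.69 and that of mt-Nd6 from −0.14 to 0.55.

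Nuclear complex I mRNAs are counted here as subunits and assembly factors together, 53 tested as deposited. Of them 18 were called higher as deposited, 17 subunits and 1 assembly factor. This pooled count was 28 with TMM, 7 without the mitochondrial chromosome, 37 on genes with a mean above 50 and 30 with a pseudocount of 10. It was 0 with the library total, the mitochondrial chromosome, no rRNA and a pseudocount of 0.1. Called lower were 0 as reported, 52 with the library total, 53 with the mitochondrial chromosome and 5 without rRNA. Over all genes, 262 were higher and 169 lower as reported, 443 and 316 with TMM, 790 and 670 on genes with a mean above 50, 279 and 630 without a filter, 536 and 580 with a pseudocount of 10, 0 and 0 with a pseudocount of 0.1 and with each library left out, and 2 and 12022, 129 and 3819, 2 and 12076 and 32 and 9143 with the total, without the mitochondrial chromosome, with that chromosome and without rRNA. Other causes of these changes were not tested. With the replicate number as a block, 3 members were called, 30 nuclear complex I mRNAs, and 470 genes higher and 309 lower. Replicate differences of the fractions correlated with r = 0.130 across 12150 genes, which are not independent, and with 2 pairs and no stated pairing the libraries share only a number. DESeq2, the authors' tool, was not run because the values are not counts.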
